A study of Mus musculus with 6 samples.

Results

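The genes described are those of PRC1.6, a Polycomb repressor complex of germline genes: Mga, Max, E2f6, L3mbtl2, Pcgf6, Tfdp1 and Cbx3. They were measured in 6 samples of mouse embryonic stem (ES) cells, 3 of a Dppa4 knockout line (CI#243.12) and 3 of the line it derives from (CI#84.2), which is hemizygous for Dppa4 and so keeps 1 copy. Every array probe set that the platform annotation assigns to exactly 1 of these symbols was taken, which gave 14 of the 45037 probe sets tested, with at least 1 for each of the 7 genes. Each group was a single cell line, so line and genotype cannot be told apart, and both lines grew on mouse embryonic fibroblast feeder cells, whose RNA is part of every sample. The values are RMA expression values (robust multi-array average, log2 scale). As background, 3.78 was taken: 95% of 80 probe sets for olfactory and vomeronasal receptors had a mean at or below it.

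PRC1.6 is a variant of Polycomb repressive complex 1. In ES cells it is known for keeping genes of germ cells and meiosis silent. MGA, a large scaffold protein, pairs with MAX and recognises the E-box CACGTG, while E2F6 pairs with the product of Tfdp1 and recognises E2F sites. PCGF6 joins these to the catalytic RING proteins, and L3MBTL2 and CBX3 are its chromatin-reading subunits. The comparison asks whether the genes of this repressor complex were expressed differently once Dppa4 was lost.

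None of the 14 probe sets passed the test. At an adjusted p under 0.05 (limma, Benjamini-Hochberg over all probe sets), 0 of 14 were called, where 0.402% of all 45037 probe sets were (0.333% lower and 0.0688% higher), and 0 of 14 also had an unadjusted p under 0.05, where 9.49% of all probe sets had. Knockout and parental arrays overlapped on 14 of 14 probe sets, while the groups did not overlap on 14.2% of all probe sets. The changes, knockout minus parental, lay between -0.29 and 0.12, with adjusted p between 0.561 and 0.978 (limma). For the 12 probe sets above background on all 6 arrays, the 95% intervals excluded a 2-fold change of the signal either way. The other 2, both of Mga, were below background on every array, so their intervals exclude nothing about the transcript. Among the 12, Cbx3 on 1432628_at and Pcgf6 on 1432108_at lay close to background. Their intervals limit the signal there and do not exclude a 2-fold change of the transcript. Together the intervals of the 12 spanned -0.60 to 0.37, which is 65.9% to 129% of the parental signal. Changes within each probe set's own interval are thus not excluded. The targeted gene shows what the same fit returned for a large change. Dppa4 (1429597_at) read 10.30, 10.35 and 10.45 in parental and 8.68, 8.84 and 8.68 in knockout samples, a change of -1.63 (SE 0.08, adjusted p = 0.000112, limma). Whether this probe set lies within the deleted part of the gene is not given here.

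**Figure D1:**
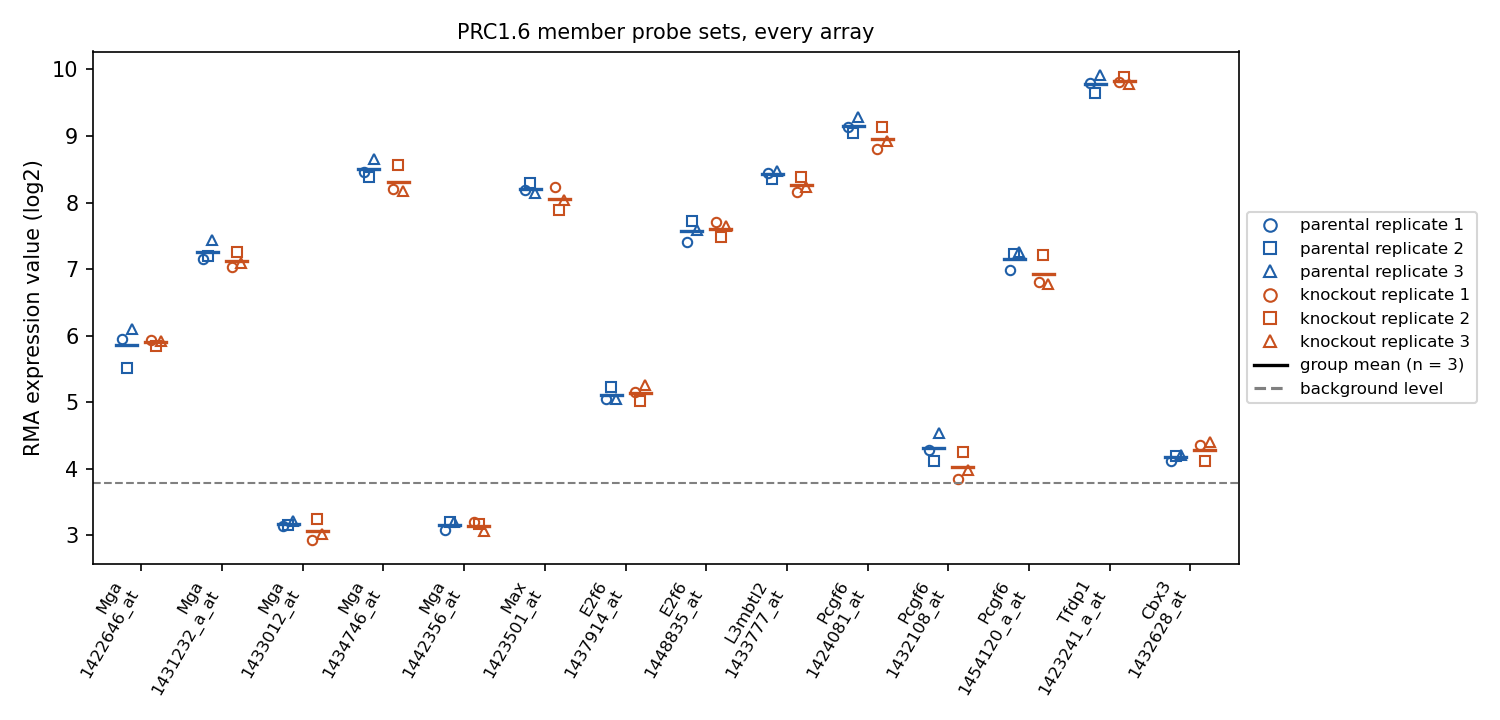
RMA expression values (log2, vertical axis) of the 14 PRC1.6 member probe sets on each of the 6 arrays, with blue for parental, orange for knockout, a different symbol for each replicate, and bars for group means (n = 3). The groups overlap on every probe set; 2 of the 5 Mga probe sets lie under the dashed background level of 3.78.

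Mga, the scaffold and DNA-binding subunit, had 5 probe sets. The one with the highest signal, 1434746_at, had parental values of 8.46, 8.39 and 8.66 and knockout values of 8.20, 8.56 and 8.17. Knockout replicates 1 and 3 were below every parental array, and knockout replicate 2 was between them, so the groups overlapped. The change was -0.19 (SE 0.12, 95% interval -0.48 to 0.09, adjusted p = 0.698, limma). On 1431232_a_at, Mga read 7.15, 7.20 and 7.43 in parental and 7.03, 7.25 and 7.09 in knockout samples, a change of -0.14 (SE 0.10, adjusted p = 0.746). On 1422646_at it read 5.95, 5.51 and 6.10 in parental and 5.93, 5.85 and 5.92 in knockout samples. The 3 knockout values lay inside the parental range there, and the parental SD of 0.31 was the largest of any member. Its change of 0.05 (SE 0.14) turned to -0.13 without parental replicate 2, the low array of that group. The 2 remaining probe sets of Mga, 1433012_at and 1442356_at, were below background on all 6 arrays. They read 2.92 to 3.25 and 3.06 to 3.19, and their changes of -0.10 and -0.01 give no information on the transcript. The probe sets of Mga that were above background thus did not share 1 direction.

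Max, the small bHLH-zipper protein that pairs with MGA and with the MYC and MXD proteins, had 1 probe set, 1423501_at. Its parental values were 8.19, 8.29 and 8.15, and its knockout values 8.24, 7.89 and 8.04. Knockout replicate 1 lay within the parental range, and the other two knockout arrays lay below it. The change was -0.15 (SE 0.10, 95% interval -0.39 to 0.08, adjusted p = 0.711, limma).

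E2f6, a repressive E2F factor, and Tfdp1, the gene of its DNA-binding partner DP1, had changes close to 0 on all of their probe sets. E2f6 read 7.41, 7.72 and 7.58 in parental and 7.70, 7.48 and 7.64 in knockout samples on 1448835_at. All 3 knockout values lay inside the parental range, with a change of 0.04 (SE 0.10, 95% interval -0.20 to 0.27, adjusted p = 0.950, limma). The second E2f6 probe set, 1437914_at, read 5.04, 5.23 and 5.05 in parental and 5.15, 5.01 and 5.25 in knockout samples, a change of 0.03 (SE 0.09). Tfdp1 (1423241_a_at) read 9.79, 9.64 and 9.92 in parental and 9.81, 9.89 and 9.78 in knockout samples. Its knockout arrays again lay inside the parental range, and the change was 0.04 (SE 0.09, 95% interval -0.16 to 0.25, adjusted p = 0.926). These 3 changes were so close to 0 that their sign turned when single arrays were left out, E2f6 lying between -0.04 and 0.11 on 1448835_at and between -0.03 and 0.09 on 1437914_at, and Tfdp1 between -0.03 and 0.11.

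Pcgf6, which encodes the subunit that defines this variant complex, had 3 probe sets, and all 3 had lower knockout means without passing the test. On 1424081_at the parental samples read 9.14, 9.05 and 9.28 and the knockout samples 8.81, 9.14 and 8.92. Knockout replicates 1 and 3 lay below the parental arrays, and knockout replicate 2 equalled parental replicate 1. The change was -0.20 (SE 0.11, 95% interval -0.44 to 0.04, adjusted p = 0.617, limma). On 1454120_a_at the parental samples read 6.98, 7.22 and 7.25 and the knockout samples 6.80, 7.21 and 6.77, and again knockout replicates 1 and 3, but not 2, lay below the parental arrays. There the change was -0.22 (SE 0.13, adjusted p = 0.675). The third, 1432108_at, lay close to background, at 4.28, 4.12 and 4.54 in parental and 3.84, 4.25 and 3.98 in knockout samples. Its change of -0.29 (SE 0.14, 95% interval -0.60 to 0.02, adjusted p = 0.561) was the largest of any member, and 4.70% of all probe sets tested changed by more. In linear terms the 3 probe sets of Pcgf6 stood at 87.1%, 85.7% and 81.8% of the parental signal. These probe sets read the same RNA on the same arrays and are not 3 independent measurements.

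L3mbtl2, a reader subunit with malignant brain tumour repeats, had 1 probe set, 1433777_at. Parental arrays gave 8.45, 8.35 and 8.48, and knockout arrays 8.16, 8.39 and 8.23. As for Pcgf6, knockout replicates 1 and 3 were below the parental arrays while knockout replicate 2 was not. The change was -0.17 (SE 0.09, 95% interval -0.36 to 0.03, adjusted p = 0.606, limma).

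Cbx3, the gene of heterochromatin protein HP1 gamma, was measured by 1 probe set of its own, 1432628_at. The parental values were 4.12, 4.19 and 4.20, and the knockout values 4.35, 4.11 and 4.40. Its signal was close to background on all arrays. Knockout replicates 1 and 3 were above the parental arrays and knockout replicate 2 was below them, for a change of 0.12 (SE 0.09, 95% interval -0.10 to 0.33, adjusted p = 0.770, limma). A further 4 probe sets are annotated to Cbx3 together with its pseudogene Cbx3-ps5 and are not used here, since their signal cannot be assigned to 1 of them.

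**Figure D2:**
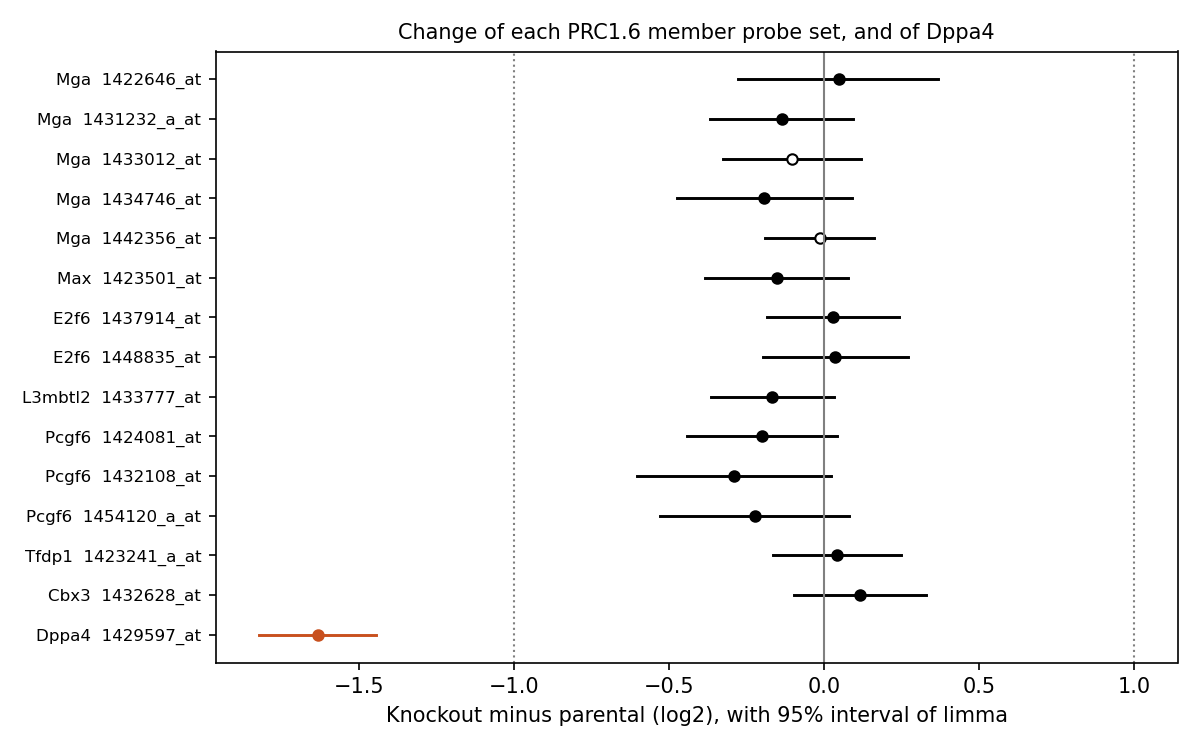
Change of each PRC1.6 member probe set (black) and of Dppa4 (orange), knockout minus parental on the log2 scale, with 95% intervals of limma; open circles mark probe sets below background on some or all arrays, and dotted lines mark 2-fold. All 14 member intervals include 0 and stay within 2-fold, whereas that of Dppa4 runs from -1.82 to -1.45. The intervals at the open circles, both of Mga, exclude nothing about the transcript. Those of Cbx3 and of Pcgf6 on 1432108_at, close to background, limit the signal only.

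As a set, the members had 9 negative and 5 positive changes and a median change of -0.12, against a median of 0.00 and 50.2% negative changes over all probe sets tested. Of the 12 member probe sets above background on all 6 arrays, 7 had negative and 5 positive changes. The 3 of Pcgf6, which are not independent, were among the negative. The 12 stood at 81.8% to 108% of the parental signal. Probe sets of different genes cannot be ranked against each other by level on these arrays. The gene with the profile most like that of Pcgf6 over the 6 arrays was Atad5 (root mean square distance of mean-centred log2 values 0.018), followed by 3110001I22Rik (0.027) and N4bp2 (0.030), among 13377 other genes. Of 16 probe sets of feeder fibroblast marker genes, 0 were called (lowest adjusted p = 0.439, limma), where 0.402% of all probe sets were. The 16, some of them of the same gene, had a median change of 0.12. Negative changes made up 12.5% of them, against 50.2% of all probe sets. Before adjustment, 2 of the 16 had a p under 0.05 (limma), where 9.49% of all probe sets had. Both were higher in knockout cells, Pdgfrb on 1436970_a_at and Lox on 1437903_at. The latter was below background on all 6 arrays. The mean of 9 such genes, 1 probe set each and all above background on every array, ran from 10.15 to 10.34 in parental and from 10.35 to 10.44 in knockout samples. That of the ES cell genes Pou5f1, Sox2 and Nanog ran from 11.19 to 11.29 in parental and from 10.98 to 11.08 in knockout samples. Its single genes changed by -0.06 (Pou5f1), -0.08 (Sox2) and -0.49 (Nanog), and none passed the test. Whether the changes of these ES cell genes differ from each other was not tested. For a single gene, fewer ES cells and less of its RNA per ES cell cannot be told apart in such bulk samples. The part of these differences in the members' values was not tested.

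The other proteins of the complex are shared with further repressors. Of 10 such genes listed, 9 were measured on 21 probe sets, of which 0 were called in either direction (limma), where 0.402% of all probe sets were. At an unadjusted p under 0.05, 4 were lower and 2 higher, where 9.49% of all probe sets passed that level in either direction. The lower ones were of Tfdp2 and Wdr5 and the higher ones of Rnf2, so probe sets of the same gene were counted separately. Rnf2, a RING protein gene, changed by 0.19 on 1424873_at and 0.21 on 1451519_at (adjusted p = 0.482 and 0.500, limma). Its other probe sets changed by 0.06, -0.01 and 0.02. Over the 21 probe sets of the list, the median change was 0.00. Named by the rule for lists without a call were Hdac1, a histone deacetylase (-0.03, SE 0.07, adjusted p = 0.936), and its paralogue Hdac2 (-0.02, SE 0.07, adjusted p = 0.956, on 1445684_s_at). Tfdp2, the gene of DP2, the other dimerisation partner of E2F proteins, was named after its value was seen. On 1443962_at it read 7.55, 7.42 and 7.61 in parental and 6.82, 7.12 and 7.01 in knockout samples, a change of -0.54 (SE 0.10, adjusted p = 0.0799, limma). The groups did not overlap there, and this was the largest change among the genes of the complex, members included. Its call depended on the variance prior, since a robust prior with an intensity trend gave an adjusted p of 0.0421. Its other probe sets gave -0.38 (1445873_at, adjusted p = 0.134), -0.24 (1437174_at, adjusted p = 0.483) and 0.02 (1435344_at). On 1445873_at all knockout arrays lay under background and the parental arrays close to it.

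Max also serves the MYC and MXD proteins. Of 21 probe sets of 8 other partner genes of Max, 1 was called, lower in knockout cells (limma), where 0.333% of all probe sets were. This was Mycn, a proto-oncogene of the MYC family, on 1425922_a_at, with 7.55, 7.70 and 7.50 in parental and 6.87, 7.07 and 7.03 in knockout samples. It fell by 0.59 on the log2 scale (SE 0.09, adjusted p = 0.0391, limma), and the groups did not overlap. Its other probe sets gave -0.40 (adjusted p = 0.275) on 1417155_at and 0.11 on 1425923_at. Leaving out any 1 of the 6 arrays ended the call, with adjusted p between 0.0837 and 0.163. Among 38 probe sets of 15 measured paralogues of the members, 1 was called as well, the HP1 alpha gene Cbx5 on 1454636_at (-0.53, SE 0.08, adjusted p = 0.0461). That call also ended without any 1 array (adjusted p 0.0598 to 0.179) and with array medians subtracted (0.0513). The other 4 probe sets of Cbx5 did not pass.

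**Figure D3:**
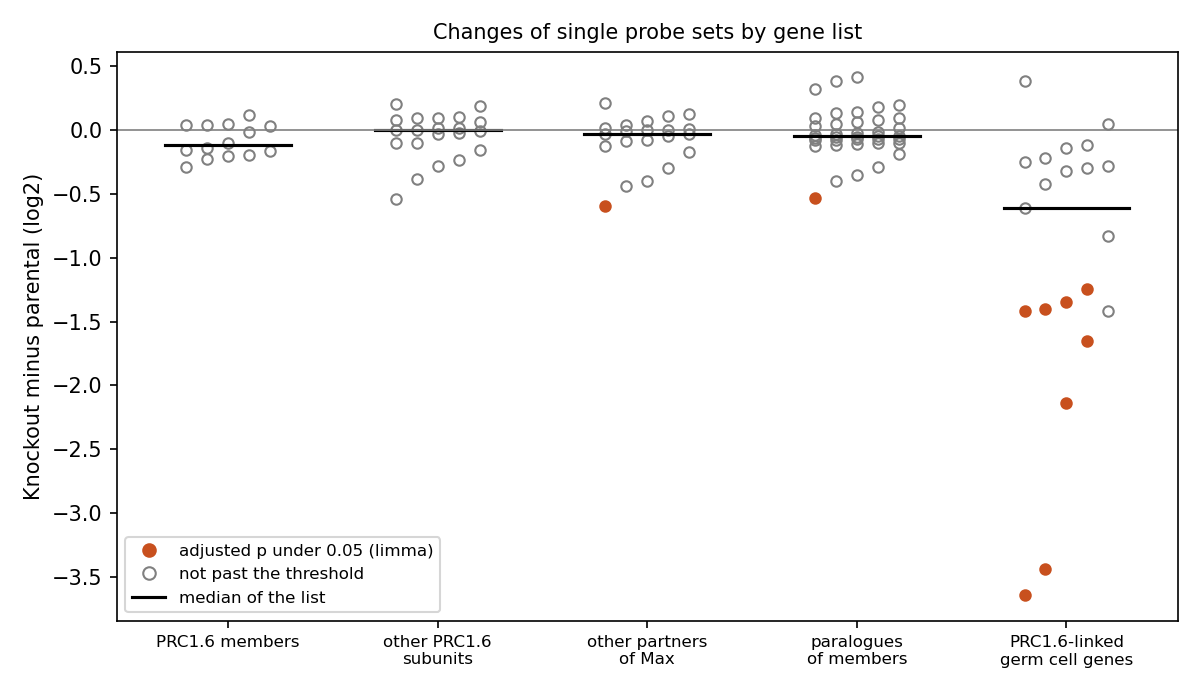
Change of single probe sets (knockout minus parental, log2) for the 14 PRC1.6 member probe sets and 4 related gene lists, with filled orange points for an adjusted p under 0.05 (limma) and bars for list medians. Members, subunits, partners and paralogues lie between -0.59 and 0.41, while the germ cell genes reach -3.64.

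Where germ cell genes linked to silencing by PRC1.6 subunits passed the test, they fell. Of 21 such genes listed, 19 were measured on 21 probe sets; 8 probe sets, of 6 genes, were called lower in knockout cells and 0 higher (limma), where 0.333% of all probe sets were called lower. The list's median change was -0.61, or -0.42 with 1 probe set a gene, against 0.00 over all probe sets. Its groups did not overlap on 15 of 21 probe sets, against 14.2% of all probe sets. These 15 include probe sets of Tex101, Taf7l and Sycp1 below background on every array. Those give no information on their transcripts. Of the 21 probe sets, 5 were above background on all 6 arrays. The list was drawn up with the fall of germ cell genes in these samples known, so it is not independent evidence of that direction. Syce1, a synaptonemal complex gene, lay between 6.99 and 7.05 in parental samples and read 3.23, 3.35 and 3.54 in knockout samples. It was at least 9.38-fold lower (adjusted p = 4.22e-06). Mael, a piRNA pathway gene, was at least 8.02-fold lower (adjusted p = 4.56e-05). The bound sets the parental mean against the background level where the knockout arrays lie under it. Dazl, an RNA-binding regulator of germ cells, was at least 3.10-fold lower on 1419542_at, and the helicase gene Ddx4 at least 2.16-fold. The kinase-like gene Stk31 was at least 1.47-fold lower on 1454138_a_at, and the ADP/ATP carrier gene Slc25a31 at least 1.15-fold. For Slc25a31 only 2 arrays were above background, since parental replicate 1 was not, and its parental mean was 3.99. Ddx4 lost its call without parental replicate 1, 2 or 3 or without knockout replicate 3 (adjusted p 0.0513 to 0.0841).

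**Figure D4:**
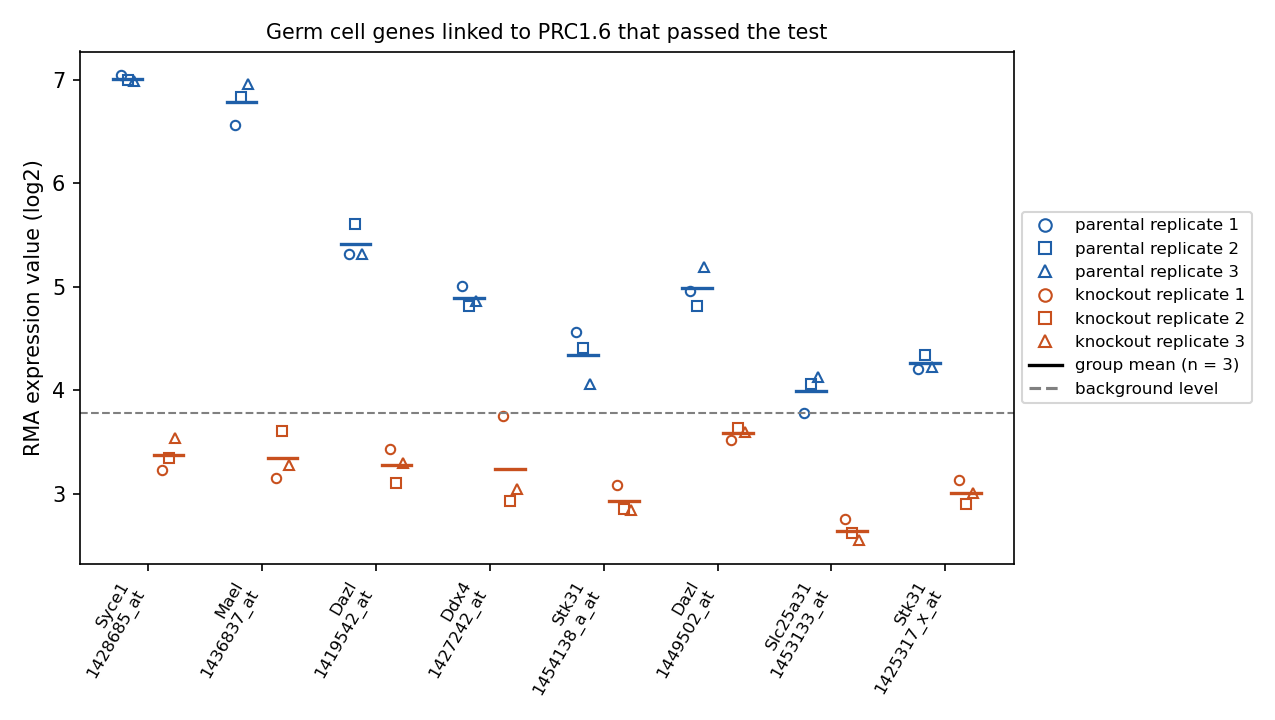
RMA expression values (log2) on each array of the 8 probe sets, of 6 PRC1.6-linked germ cell genes, that passed the test, with symbols and bars as in the plot of the members by array. All knockout values lie under the background level of 3.78 and under every parental value of the same probe set.

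Motifs known for subunits of the complex were looked up in the promoters of these genes. In general, MGA with MAX recognises the E-box, and E2F6 with DP1 recognises E2F sites. Windows of 250 bases before to 50 after the start site were taken from RefSeq (GRCm38.p6), and both strands were searched for CACGTG, the E-box, and GCGGGA, the core of an E2F site. The reverse complement TCCCGC counts as the latter; both motifs can share 1 base, which they did in none of the windows printed. Of the 6 genes that passed, 4 held at least 1 of the motifs, and Syce1 and Dazl held neither. The windows of these 4 are printed 5′ to 3′ on the gene's strand, with both motifs in capitals.
Mael, chr1:166238695-166238994, minus strand: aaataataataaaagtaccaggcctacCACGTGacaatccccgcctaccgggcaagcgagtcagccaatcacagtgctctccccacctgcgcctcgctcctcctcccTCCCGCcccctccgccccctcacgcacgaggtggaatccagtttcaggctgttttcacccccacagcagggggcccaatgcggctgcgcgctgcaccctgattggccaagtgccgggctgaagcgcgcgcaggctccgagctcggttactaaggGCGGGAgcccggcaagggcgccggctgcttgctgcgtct
Ddx4, chr13:112652261-112652560, minus strand: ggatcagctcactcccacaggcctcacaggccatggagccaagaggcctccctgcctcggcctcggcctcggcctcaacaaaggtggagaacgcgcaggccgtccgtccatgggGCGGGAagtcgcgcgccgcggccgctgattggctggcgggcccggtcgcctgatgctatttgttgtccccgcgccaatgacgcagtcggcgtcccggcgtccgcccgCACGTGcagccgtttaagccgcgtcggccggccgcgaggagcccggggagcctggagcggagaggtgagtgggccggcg
Stk31, chr6:49395289-49395588, plus strand: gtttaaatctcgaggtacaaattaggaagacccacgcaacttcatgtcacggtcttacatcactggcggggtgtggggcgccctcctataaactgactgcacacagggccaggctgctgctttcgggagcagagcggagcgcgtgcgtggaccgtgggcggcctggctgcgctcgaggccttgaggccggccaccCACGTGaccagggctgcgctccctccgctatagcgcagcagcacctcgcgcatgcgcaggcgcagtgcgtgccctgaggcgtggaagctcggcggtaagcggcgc
Slc25a31, chr3:40708621-40708920, plus strand: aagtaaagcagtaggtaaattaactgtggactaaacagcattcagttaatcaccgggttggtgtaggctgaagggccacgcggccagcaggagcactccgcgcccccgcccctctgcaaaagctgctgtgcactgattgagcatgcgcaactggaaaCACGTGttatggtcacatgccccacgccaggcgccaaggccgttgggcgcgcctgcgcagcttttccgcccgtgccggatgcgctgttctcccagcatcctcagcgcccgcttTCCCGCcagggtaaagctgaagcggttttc
The E-box began at base -223 from the start site in Mael, at -29 in Ddx4, at -55 in Stk31 and at -93 in Slc25a31. Across the windows of all listed germ cell genes, measured or not, 14 of 26 held CACGTG and 13 of 26 held GCGGGA. Of all 32851 promoter windows in the table, 7.15% and 20.0% did. GCGGGA was no rarer in the other lists: 5 of 9 windows of other subunits, 5 of 9 of Max partners and 11 of 20 of paralogues. CACGTG was in 2 of 9, 2 of 9 and 5 of 20 there. The germ cell list was chosen for links to this complex, so its motif shares are not independent evidence. Hormad1, Stk31 and Tdrd1 have overlapping windows that were counted separately. The members' own windows held CACGTG in 2 of 9 and GCGGGA in 3 of 9. These were windows of Max (CACGTG), E2f6 (GCGGGA) and Tfdp1 (both), while those of Mga, Pcgf6, L3mbtl2 and Cbx3 held neither. Tfdp1 also has overlapping windows that were counted separately, and each of them held GCGGGA. A match is a description of the letters and shows no binding.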

How the data were processed

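Biotin-labelled total RNA of 6 samples was measured on Affymetrix arrays, per the labels' protocols. The authors deposited 1 table of log2 values, a row per probe set and a column per array; RMA is the normalization named, per the submitters' processing notes; the software and its settings are not given here. The log2 scale was read from the values, 2.12 to 13.98. RMA gives arrays a shared distribution (medians 4.21 to 4.25), so a shift of most transcripts would not show.

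Of 45101 probe sets, 64 controls were left out. Genes come from the platform annotation given with the table. The knockout against parental difference was tested by limma 3.58.1 under R 4.3.3 (lmFit and eBayes, two-sided, without covariates); p-values were Benjamini-Hochberg adjusted across 45037 probe sets, and the procedure was tested on simulated data. An exact permutation test of 3 against 3 cannot give p below 0.1. The number of arrays limits the precision. The labels do not say that replicates were separate cultures, so p-values reflect only the spread between samples, which may be technical. No pair of arrays held the same values; pairs correlated at 0.994 to 0.997.

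Members, lists, tests and alternatives were chosen with earlier results of these data known. Named are all members, Dppa4, and from each list up to 8 genes that passed or, where none did, the 2 with the highest mean, which ranks probe sets only to choose names. Tfdp2, the ES cell genes, and genes named only to show which probe sets a count holds were added to these. Printed promoters were those of listed germ cell genes that passed and held a motif, at most 5. Alternatives were leaving out each array, a block for the replicate number, a robust prior with an intensity trend, a second quantile normalization, subtraction of array medians, dropping probe sets below background, and dropping those ending in x_at or s_at.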

Additional observations from a re-analysis of the deposited data

How the results depend on the processing

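Over 166 values of member probe sets under the alternatives, 0 were called, and the lowest adjusted p was 0.312 (Pcgf6 on 1454120_a_at without knockout replicate 2, limma). The sign of an uncalled member value turned 9 times, each time on leaving out 1 array: Mga on 1422646_at ranged from -0.13 to 0.17 and on 1442356_at from -0.050 to 0.027, E2f6 on 1437914_at from -0.027 to 0.093 and on 1448835_at from -0.043 to 0.112, and Tfdp1 from -0.028 to 0.112. Dppa4 ranged from -1.69 to -1.59. All probe sets called numbered 181, against 88 with the replicate block, 312 with a robust prior and intensity trend, and 70 to 112 without 1 array. Germ cell probe sets called numbered 8, and 7 to 11 without 1 array. The called probe set of Mycn (partners of Max) gave 0 calls with the replicate block and 0 without any 1 array. That of Cbx5 (paralogues) gave 0 calls with the replicate block, 0 with array medians subtracted and 0 without any 1 array. Of the other subunits, 1, Tfdp2, was called with the robust prior. The cause of these moves was not tested, except that leaving out an array leaves fewer samples. Arrays were not paired by replicate number (correlations of deviations 0.112, -0.364 and -0.287). With the block, 0 member probe sets were called.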

Other observations

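The knockout arrays were not alike on the member probe sets, and the following count was defined after the values were seen, so it supports nothing. On 7 of 14 member probe sets, those of Pcgf6 and L3mbtl2 and 3 of Mga (1 of them below background), knockout replicates 1 and 3 lay below every parental array while knockout replicate 2 did not. Among all probe sets this held for 6.86%. Knockout replicate 2 was the highest knockout array on 57.1% of member probe sets and 36.8% of all, and exactly 2 knockout arrays, whichever they were, lay below every parental array on 57.1% and 14.8%. Leaving out the highest knockout array must make a change more negative. Without knockout replicate 2, the changes of Pcgf6 were -0.29, -0.40 and -0.37 on 1424081_at, 1432108_at and 1454120_a_at, with adjusted p of at least 0.312 (limma). Mga on 1434746_at then changed by -0.32 and L3mbtl2 by -0.23, which did not pass either.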
